A study of Homo sapiens with 6 samples.

Results

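S100A10 and annexin A2 (ANXA2) were examined with 8 further genes of the S100 family in SK-BR-3 cells given an siRNA against GRB2. S100A10 was chosen by its p, the second smallest of all genes in this comparison, so its change is given as a description without a test. The other 9 members (ANXA2, S100A4, S100A6, S100A8, S100A9, S100A11, S100A13, S100A14 and S100A16) were selected as its binding partner and relatives by their symbols. The 10 members were found by symbol among 30327 genes, and all 10 were among the 15801 genes with enough reads to test.

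SK-BR-3 is an established breast cancer cell line that overexpresses HER2 (ERBB2). Poly(A) RNA was compared between 3 libraries from cells that received a nontargeting siRNA (si_NC) and 3 from cells that received siRNA against GRB2 (si_GRB2), the adaptor protein that links receptor tyrosine kinases to RAS. The sample descriptions name the treated libraries si_GRB2, whereas their titles and genotype labels name GRB2 overexpression. GRB2 itself had 123.9, 129.5 and 125.7 CPM in si_NC and 27.8, 28.2 and 29.6 CPM in si_GRB2, where CPM are counts scaled to the TMM-normalized library size, so it was lower in every library labelled si_GRB2. More than one siRNA against GRB2 was used in the wider work, and the labels do not say which one these libraries received. The libraries held 24810378 to 28532480 counted reads. Nothing in the labels says that the libraries came from separate cultures, so p-values measure the spread between these libraries, which may be technical. The 5 epithelial markers ERBB2, EPCAM, KRT8, KRT18 and KRT19 summed to 17100 to 17500 CPM in si_NC and 14300 to 14900 CPM in si_GRB2. They moved in opposite directions with edgeR, since ERBB2 rose (log2 fold change 0.24, adjusted p = 1.14e-06), while EPCAM (−0.55), KRT8 (−0.41), KRT18 (−0.55) and KRT19 (−0.20) fell with adjusted p of at most 4.1e-06. Their part in the changes of the members was not tested. Fibroblast markers summed to at most 5.74 CPM in any library, with COL1A1 the highest. All 6 libraries are bulk RNA of one cell line, in which fewer cells of a kind and less RNA per cell cannot be told apart.

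S100 proteins are small proteins with a pair of EF hands, the loops through which most of them bind calcium and then dock onto partner proteins. S100A10, also called p11, is the exception that has lost calcium binding and is held in its active form. A dimer of S100A10 joins a pair of annexin A2 molecules, which bind membrane phospholipids when calcium is present, and this tetramer serves at the cell surface as a receptor for plasminogen. Free S100A10 protein is unstable without annexin A2. Most S100 genes, S100A10 included, lie together on the long arm of chromosome 1.

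The regions around the starts of S100A10, its partner ANXA2 and S100A4 are printed because S100A10 had the largest change, ANXA2 encodes its partner and S100A4 had the largest fall among the rest. Each holds 250 bases before and 50 bases after the RefSeq start on GRCh38.p14, 5′ to 3′ on the minus strand, at chr1:151993810-151994109, chr15:60397937-60398236 and chr1:153545757-153546056 in that order. Capitals mark the TATA box TATAAA, the GC box GGGCGG, the AP-1 site TGANTCA, the STAT site TTCNNNGAA and the ETS site CCGGAA, searched on both strands.
S100A10: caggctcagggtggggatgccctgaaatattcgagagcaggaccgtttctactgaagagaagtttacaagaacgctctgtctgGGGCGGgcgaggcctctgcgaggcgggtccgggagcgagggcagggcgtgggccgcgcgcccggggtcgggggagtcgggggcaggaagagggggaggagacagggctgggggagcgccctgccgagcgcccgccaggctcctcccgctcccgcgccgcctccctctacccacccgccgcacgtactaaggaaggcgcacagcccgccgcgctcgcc
ANXA2: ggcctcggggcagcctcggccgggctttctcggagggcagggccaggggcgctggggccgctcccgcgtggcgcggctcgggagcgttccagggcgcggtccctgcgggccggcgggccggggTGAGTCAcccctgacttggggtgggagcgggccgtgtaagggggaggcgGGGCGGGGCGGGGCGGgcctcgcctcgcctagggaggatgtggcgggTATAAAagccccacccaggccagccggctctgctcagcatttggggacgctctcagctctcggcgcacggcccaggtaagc
S100A4: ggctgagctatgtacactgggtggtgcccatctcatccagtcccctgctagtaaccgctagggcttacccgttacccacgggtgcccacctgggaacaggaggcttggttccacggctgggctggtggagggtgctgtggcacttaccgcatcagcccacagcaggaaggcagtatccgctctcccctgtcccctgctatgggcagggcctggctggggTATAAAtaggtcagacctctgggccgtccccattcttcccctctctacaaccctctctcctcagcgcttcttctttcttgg
The S100A10 region held 1 GC box at position −167, counted from the start base as 0, and no TATA box, AP-1, STAT or ETS match. It was 71.7% G and C with 32 CpG, against medians of 58.7% and 14 over 35116 promoters. The ANXA2 region was as rich in CpG, with 32, but held a TATA box at −31, an AP-1 match at −127 and 3 overlapping GC boxes. The S100A4 region held a TATA box at −31 and 8 CpG. RefSeq gives 15 start regions for the 10 members, since S100A8, S100A13 and S100A16 have several. TATA boxes occurred in 6 of the 15 regions, belonging to ANXA2, S100A4, S100A8, S100A9 and S100A13, and a pair of overlapping S100A8 regions held the same box, at −29 and −126. GC boxes occurred in 7 of the 15 regions, AP-1 matches in 1, STAT matches in 0 and ETS matches in 2. By comparison, 11.5% of all promoters held a TATA box, 45.0% a GC box, 7.71% an AP-1, 7.66% a STAT and 17.2% an ETS match. These matches are a description of the letters in these windows.

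S100A10 (ENSG00000197747.9) spans bases 151982915 to 151993859 of chromosome 1 (GRCh38) on the minus strand. Its level was 272.1, 287.1 and 273.5 CPM in si_NC, and 98.1, 94.7 and 100.9 CPM in si_GRB2. The si_GRB2 libraries lay far below the si_NC libraries and close to each other. The mean was 2.83-fold lower in si_GRB2, a log2 fold change of −1.50 with a standard error (SE) of 0.03. With each library left out in turn, this value stayed between −1.53 and −1.48, in the same libraries by which S100A10 was chosen. S100A10 made up 4.16% to 4.44% of the summed CPM of the 16 tested S100 genes in si_NC and 1.66% to 1.76% in si_GRB2.

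ANXA2 (ENSG00000182718.18, minus strand of chromosome 15 from 60347134 to 60402883), the annexin that S100A10 binds, had 369.0, 387.7 and 373.8 CPM in si_NC. It had 345.4, 328.8 and 345.5 CPM in si_GRB2, below every si_NC library. The log2 fold change was −0.15 (SE 0.03, adjusted p = 0.000928 from the quasi-likelihood test of edgeR, adjusted by Benjamini-Hochberg over all tested genes), a change of −9.8% in the mean. That call was not made by limma on log2(FPKM + 1), which gave −0.10 (adjusted p = 0.22). The transcript of the partner thus kept most of its level where S100A10 did not. In the deposited FPKM, a level per exon length and library size, the ratio of S100A10 to ANXA2 was 8.43, 8.47 and 8.37 in si_NC and 3.25, 3.29 and 3.34 in si_GRB2. The size of that ratio depends on the gene length used. Counts divided by FPKM gave gene lengths relative to that of S100A10, which was set to the 1012 bases of all its annotated exons. ANXA2 came to 11573 bases in this way, beside 11574 bases of annotated exons. The representative MANE Select transcripts have 671 bases for S100A10 and 1554 bases for ANXA2. Per kilobase of the MANE Select transcript, the ratio was 1.71 ± 0.0104 in si_NC and 0.667 ± 0.00943 in si_GRB2 (SD, n = 3 each). On that scale the level of S100A10 was above that of ANXA2 in every si_NC library and below it in every si_GRB2 library. The log2 fold of the ratio between the groups was −1.35 with FPKM. Because S100A10 was chosen by its change, these ratios were not tested.

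**Figure D1:**
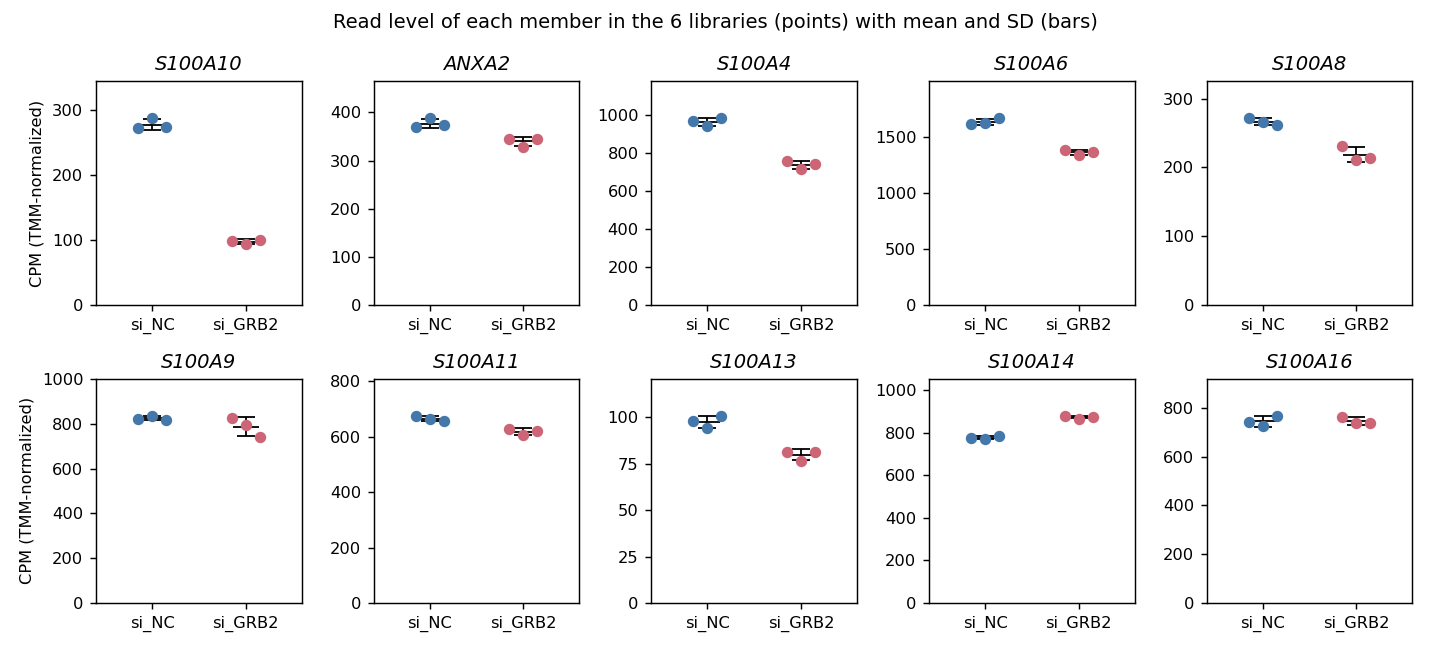
TMM-normalized CPM (vertical axes from 0) of the 10 members in each of the 3 si_NC and 3 si_GRB2 libraries, as points with the mean and SD. S100A10 drops from 272.1 to 287.1 CPM to 94.7 to 100.9 CPM, S100A14 is the only one of the 10 wholly higher in si_GRB2, and the groups overlap for S100A9 and S100A16.

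Of the 9 members other than S100A10, 6 fell and 1 rose at an adjusted p under 0.05 with edgeR. The same limit called 15.5% of all tested genes lower and 15.2% higher. The members carry many reads, and among the 2223 genes with at least the mean of the lowest member (88.7 CPM), a limit chosen after the values were seen, it called 29.6% lower and 24.3% higher. Changes among these 9 were small. A differentially expressed gene (DEG) needed an edgeR adjusted p under 0.01 together with a change of more than 1.5-fold in either direction. The fold limit follows the methods, whose p limit was applied here to adjusted p. None of the 9 members (0) was a DEG in edgeR, in DESeq2 or in any other setting tried, though 7 of the 9 had an unadjusted p under 0.05, as did 39.4% of all tested genes. Among all genes, 1.69% were DEGs lower and 0.829% DEGs higher in si_GRB2. The groups did not overlap, with si_GRB2 lower, for the 6 members that fell, and with si_GRB2 higher for the 1 that rose, where 21.2% and 21.1% of all tested genes showed such separation. The median log2 fold change of the 9 members was −0.15, beside 0.00 over all tested genes.

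S100A4, known for binding non-muscle myosin and for its part in metastasis, had the largest fall among the 9. It had 968.9, 943.6 and 984.6 CPM in si_NC and 759.8, 718.1 and 742.5 CPM in si_GRB2, with every si_GRB2 library lower. The log2 fold change was −0.38 (SE 0.03, edgeR adjusted p = 1.71e-08). S100A6, or calcyclin, carried the most reads of the family, with 1614, 1623 and 1663 CPM in si_NC and 1379, 1339 and 1365 CPM in si_GRB2. It fell by 0.26 on the log2 scale (SE 0.02, edgeR adjusted p = 1.73e-07). In absolute terms the mean of S100A6 changed by −273 CPM and that of S100A4 by −226 CPM, both more than the −180 CPM of S100A10. The 16 tested S100 genes together summed to 6462 to 6575 CPM in si_NC and 5700 to 5905 CPM in si_GRB2. Without S100A10 the sums were 6174 to 6302 CPM and 5605 to 5807 CPM, so the groups stayed apart.

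S100A8 and S100A9 form calprotectin, a heterodimer best known from neutrophils and monocytes and also made by epithelial cells. S100A8 had 271.3, 266.4 and 262.1 CPM in si_NC and 231.4, 211.4 and 213.8 CPM in si_GRB2, a separation without overlap. It fell by 0.28 on the log2 scale (SE 0.03, edgeR adjusted p = 8.76e-06). S100A9 had 819.9, 834.5 and 818.0 CPM in si_NC and 824.9, 794.3 and 742.0 CPM in si_GRB2, and the groups overlapped because si_GRB2 replicate 1 lay within the si_NC range. Its log2 fold change of −0.07 did not pass the test (SE 0.03, edgeR adjusted p = 0.128), but did without si_GRB2 replicate 1 (−0.10, adjusted p = 0.0222) and without a filter on low counts (adjusted p = 0.0476). The FPKM ratio of S100A8 to S100A9 was 0.213, 0.205 and 0.206 in si_NC and 0.180, 0.171 and 0.185 in si_GRB2, with no overlap. The myeloid markers PTPRC, ITGAM, LYZ, CD14 and CSF3R together summed to 4.24 to 5.06 CPM in si_NC and 3.83 to 4.15 CPM in si_GRB2, and PTPRC had 2 reads over all 6 libraries. CSF3R, at 2.82 CPM on average in si_NC and 2.44 CPM in si_GRB2, was the highest of these markers, and none of the 3 with enough reads passed the test (0 with edgeR, and 0 at an unadjusted p under 0.05).

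S100A13, which takes part in the release of FGF1 and IL1A from cells without a signal peptide, had 98.0, 94.2 and 100.7 CPM in si_NC and 81.5, 76.5 and 81.6 CPM in si_GRB2. Every si_GRB2 library was lower, and S100A13 fell by 0.29 on the log2 scale (SE 0.04, edgeR adjusted p = 2.73e-05). S100A11, a partner of annexin A1 and the nearest S100 neighbour of S100A10, had 674.6, 663.6 and 658.5 CPM in si_NC and 628.1, 605.8 and 622.0 CPM in si_GRB2. It fell by 0.11 on the log2 scale (SE 0.02, edgeR adjusted p = 0.00314), a small change without overlap. Limma on log2(FPKM + 1) gave S100A11 an adjusted p of 0.274 and S100A13 one of 0.0561, so that neither was called there. S100A14, an epithelial member of the family, was the exception in direction. It had 776.3, 769.9 and 784.8 CPM in si_NC and 878.9, 867.5 and 876.8 CPM in si_GRB2, and rose by a log2 fold change of 0.17 (SE 0.02, edgeR adjusted p = 2.18e-05). S100A16, its close neighbour on the chromosome, had 742.6, 724.3 and 766.6 CPM in si_NC and 764.9, 737.9 and 737.8 CPM in si_GRB2. The groups overlapped, and the log2 fold change of 0.00 had a standard error of 0.03 (edgeR adjusted p = 0.927).

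Of 11 further S100 genes, 7 had enough reads to test, and 3 of these fell, 0 rose and 4 passed neither limit at an edgeR adjusted p under 0.05. Their median log2 fold change was −0.05, beside 0.00 over all tested genes, of which 15.5% were lower and 15.2% higher at that limit. S100A7, or psoriasin, had 5.31, 5.06 and 6.60 CPM in si_NC and 3.70, 4.08 and 3.83 CPM in si_GRB2, a log2 fold change of −0.55 (edgeR adjusted p = 0.00563). S100A5 had a log2 fold change of −0.56 (adjusted p = 0.00166) and S100A3 of −0.27 (edgeR adjusted p = 0.0299). These 3 genes had few reads, between 765 and 1657 over the 6 libraries. None of the 7 (0) was a DEG in edgeR or DESeq2, while 3 had an unadjusted p under 0.05, beside 39.4% of all tested genes. Leaving out si_NC replicate 1 made S100A5 and S100A7 DEGs (−0.65 and −0.60), leaving out si_NC replicate 2 made S100A7 one (−0.63), and leaving out si_GRB2 replicate 3 made S100A5 one (−0.65). S100A3 lost its call in 5 of the 6 fits that each left out a library and with DESeq2 (adjusted p = 0.088). S100P, the most abundant of them, had 224.7 to 237.4 CPM in si_NC and 228.1 to 234.3 CPM in si_GRB2, with a log2 fold change of −0.00 and a standard error of 0.03 (edgeR adjusted p = 0.969).

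Of 12 other annexins, 10 were tested, and at an adjusted p under 0.05 from edgeR 3 fell and 2 rose. That limit called 15.5% of all tested genes lower and 15.2% higher, and 1.69% were DEGs lower. ANXA3 was the single DEG among the 10 annexins, with 53.0, 57.8 and 53.0 CPM in si_NC and 27.3, 28.2 and 34.8 CPM in si_GRB2. Its log2 fold change was −0.86 (SE 0.07, edgeR adjusted p = 1.4e-07), larger than that of ANXA2. ANXA1, the partner of S100A11, fell from 27.4 ± 0.676 to 20.3 ± 1.03 CPM (SD, n = 3 each), a log2 fold change of −0.43 (edgeR adjusted p = 1.63e-05). ANXA11 had a log2 fold change of −0.36 (adjusted p = 1.08e-07), ANXA7 of 0.26 (adjusted p = 2.31e-06) and ANXA4 of 0.16 (adjusted p = 0.00364, edgeR for all 3). The median of the 10 was −0.06.

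**Figure D2:**
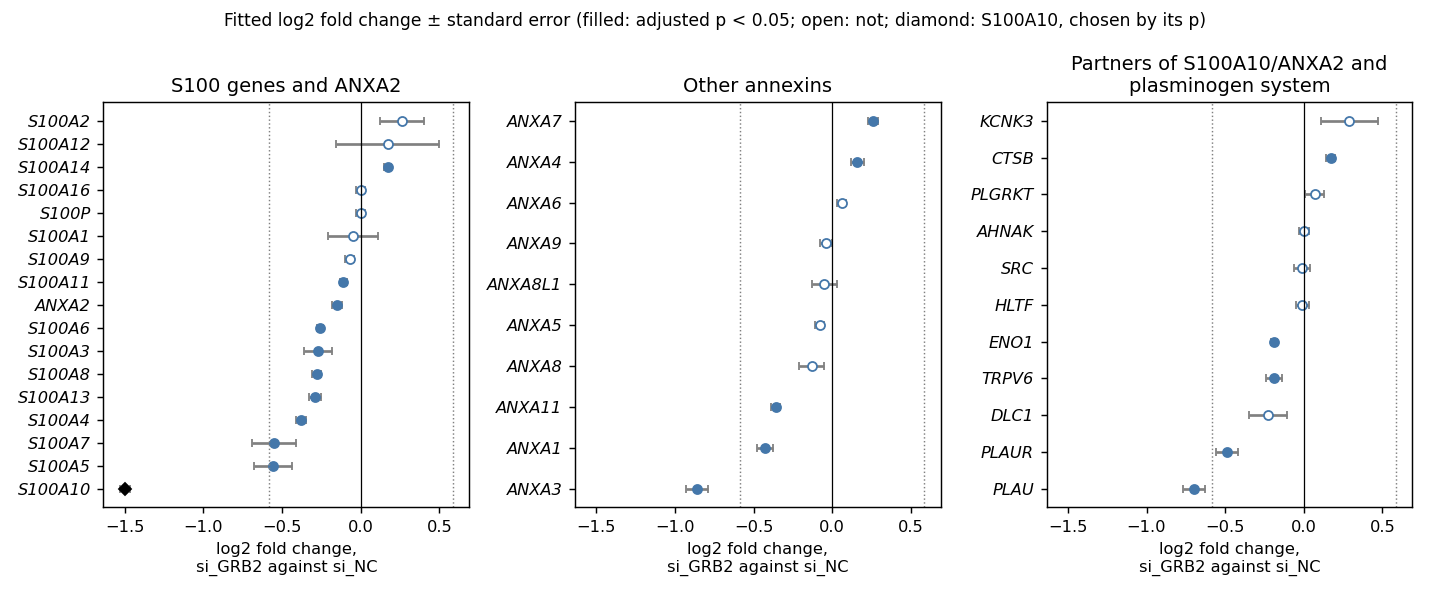
Fitted log2 fold change of si_GRB2 against si_NC (horizontal axis) with its standard error for the tested S100 genes and ANXA2, the other annexins, and the partners of S100A10 or ANXA2 with the plasminogen system, with filled points at an adjusted p under 0.05 and dotted lines at a fold of 1.5 either way. S100A10 at −1.50 stands past every other gene drawn, and ANXA3 at −0.86 and PLAU at −0.70 are the others past the dotted line.

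Of 11 genes whose products bind S100A10 or the annexin A2 tetramer, or modify annexin A2, 7 were tested. At an adjusted p under 0.05 from edgeR 1 fell and 1 rose, where 15.5% of all tested genes were lower and 15.2% higher. AHNAK, the large scaffold that the tetramer recruits to the membrane, had 319.9 to 340.7 CPM in si_NC and 320.5 to 343.4 CPM in si_GRB2, with a log2 fold change of −0.00 and a standard error of 0.03. CTSB, the protease cathepsin B, rose from 103 ± 1.19 to 116 ± 3.87 CPM (SD, n = 3 each), a log2 fold change of 0.17 (edgeR adjusted p = 0.000997). TRPV6, a calcium channel that S100A10 helps to reach the surface, had a log2 fold change of −0.19 (edgeR adjusted p = 0.0112), a call lost without si_GRB2 replicate 3 (adjusted p = 0.0638). The median of the 7 was −0.01. None of them (0) was a DEG in edgeR or DESeq2, and 2 of the 7 had an unadjusted p under 0.05, where 39.4% of all tested genes did. In the plasminogen system, 4 of 9 genes were tested and 3 fell at the same limit. Of all tested genes, 15.5% were lower at that limit and 1.69% were DEGs lower. PLAU, the urokinase that activates plasminogen, had 19.5, 20.5 and 19.4 CPM in si_NC and 12.9, 12.9 and 10.7 CPM in si_GRB2. It was the single DEG among these 4 genes (−0.70, adjusted p = 2.53e-06, edgeR). Its receptor PLAUR had 15.1, 16.6 and 16.6 CPM and then 11.5, 11.7 and 11.1 CPM (−0.49, adjusted p = 6.24e-05, edgeR). ENO1, a glycolytic enzyme that also binds plasminogen at the cell surface, had a log2 fold change of −0.19 (edgeR adjusted p = 2.11e-06). That call was lost with limma on log2(FPKM + 1) (adjusted p = 0.0822). The median of the 4 was −0.34.

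Of 13 receptors and partners of other S100 proteins, 10 were tested, with a median log2 fold change of −0.12. At an adjusted p under 0.05 from edgeR 5 fell and 3 rose, where 15.5% of all tested genes were lower and 15.2% higher. FGF1, released together with S100A13, had a log2 fold change of −0.42 (adjusted p = 0.0177) and SUGT1 of −0.15 (adjusted p = 0.00709, edgeR for both). SYT1, a synaptotagmin of the same release complex, had a log2 fold change of 0.40 (adjusted p = 0.0496), PPFIBP1, a binding partner of S100A4, of 0.29 (adjusted p = 0.00116) and ALCAM of 0.27 (adjusted p = 0.0013, edgeR for all 3). The call of FGF1 was lost without si_NC replicate 2 (adjusted p = 0.0545), without si_GRB2 replicate 2 (adjusted p = 0.0765) and with DESeq2 (adjusted p = 0.0676). SYT1 lost its call in 5 of the 6 fits that each left out a library and with DESeq2 (adjusted p = 0.125). None of the 10 (0) was a DEG in edgeR or DESeq2, and 9 had an unadjusted p under 0.05, against 39.4% of all tested genes.

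Per length, the members spanned a wide range of levels. In the deposited FPKM, S100A6 stood first in si_NC with 1352 ± 70.7, followed by S100A9 with 1155 ± 39.2, S100A11 with 823.6 ± 21.1 and S100A4 with 820.3 ± 42.8 (SD, n = 3 each). S100A11 and S100A4 overlapped, while every other neighbour in that order was apart in si_NC. S100A14 had a mean FPKM of 489 ± 21.6, S100A16 of 352 ± 21.5, S100A8 of 240.3 ± 4.79 and S100A10 of 220.3 ± 9.43. S100A13 at 35.4 ± 2.25 and ANXA2 at 26.2 ± 1.15 came last. In si_GRB2 the order of FPKM was the same for the members, with S100A10 at 80.1 ± 2.93, and S100A6 at 1160 ± 18.9 overlapped S100A9 at 1136 ± 47.7. S100A10 stood above 99.1% of tested genes by FPKM in si_NC and still above 97.3% in si_GRB2. Dividing by the MANE Select transcript instead, a choice made after the lengths were seen, moved S100A4 to the second place and S100A9 to the third. In si_GRB2 their ranges overlapped, at 1400 to 1481 and 1295 to 1440 CPM per kilobase. S100A8 and S100A16 overlapped in si_NC. On that scale S100A10 was eighth in si_NC with 413.7 ± 12.4 CPM per kilobase and last in si_GRB2 with 145.9 ± 4.66, below S100A13 with 167.4 ± 6.06 and ANXA2 with 218.7 ± 6.18 (SD, n = 3 each).

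**Figure D3:**
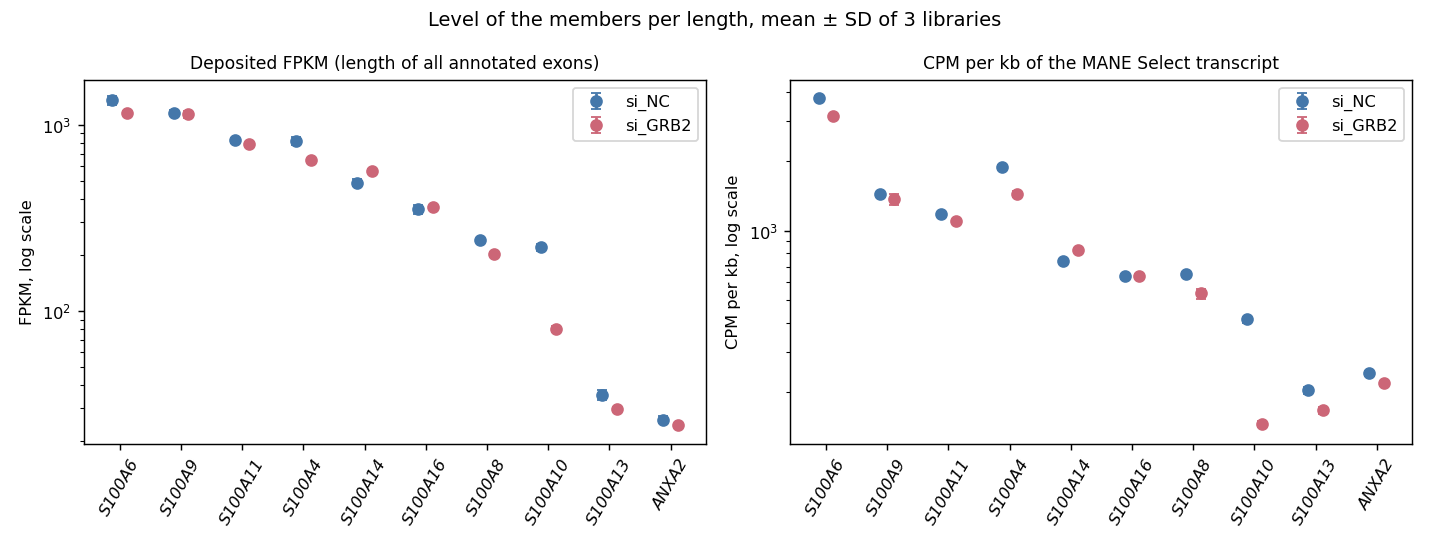
Level of each member per length on log axes, as the mean and SD of 3 libraries per group, in the deposited FPKM (left) and in CPM per kilobase of the MANE Select transcript (right). ANXA2 is last in FPKM, and on the right S100A10 falls from 413.7 to 145.9 CPM per kilobase, below ANXA2.

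Genes around S100A10 were called in both directions. Within 1 Mb of it, 42 other genes were tested, with a median log2 fold change of 0.03. Of these, 6 were lower and 11 higher in si_GRB2 at an adjusted p under 0.05 from edgeR. Among all tested genes, 15.5% were lower and 15.2% higher at that limit, while 1.69% were DEGs lower and 0.829% DEGs higher. None of the 42 (0) was a DEG lower in si_GRB2, though 20 had an unadjusted p under 0.05 (as did 39.4% of all tested genes), and 2 were DEGs higher, BNIPL (0.94) and TCHH (0.89), both with under 3 CPM on average in either group. The nearest tested genes on either side, S100A11 and THEM4, had log2 fold changes of −0.11 and −0.31. From S100A9 to S100A1, chromosome 1 from 153357854 to 153632039, 16 genes were tested. Of these, 7 were lower and 1 was higher at the same limit on adjusted p. Only 3 of the 16 were no S100 gene and none of these (0) was called, so all 8 called were S100 genes. These 3 had large standard errors, from 0.15 to 0.27, so small changes in them would be hard to call. Just past S100A1, genes that are no S100 gene had values in both directions. CHTOP had −0.18 (SE 0.03), SNAPIN 0.02 (SE 0.04), ILF2 −0.16 (SE 0.02), INTS3 0.12 (SE 0.04) and SLC27A3 −0.52 (SE 0.07). S100A14 and S100A16, at the S100A1 end of the stretch from S100A9 to S100A1, had values of 0.17 and 0.00, next to S100A13 at −0.29. Around ANXA2, 7 genes were tested within 1 Mb, and MYO1E was the single DEG (−0.74).

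**Figure D4:**
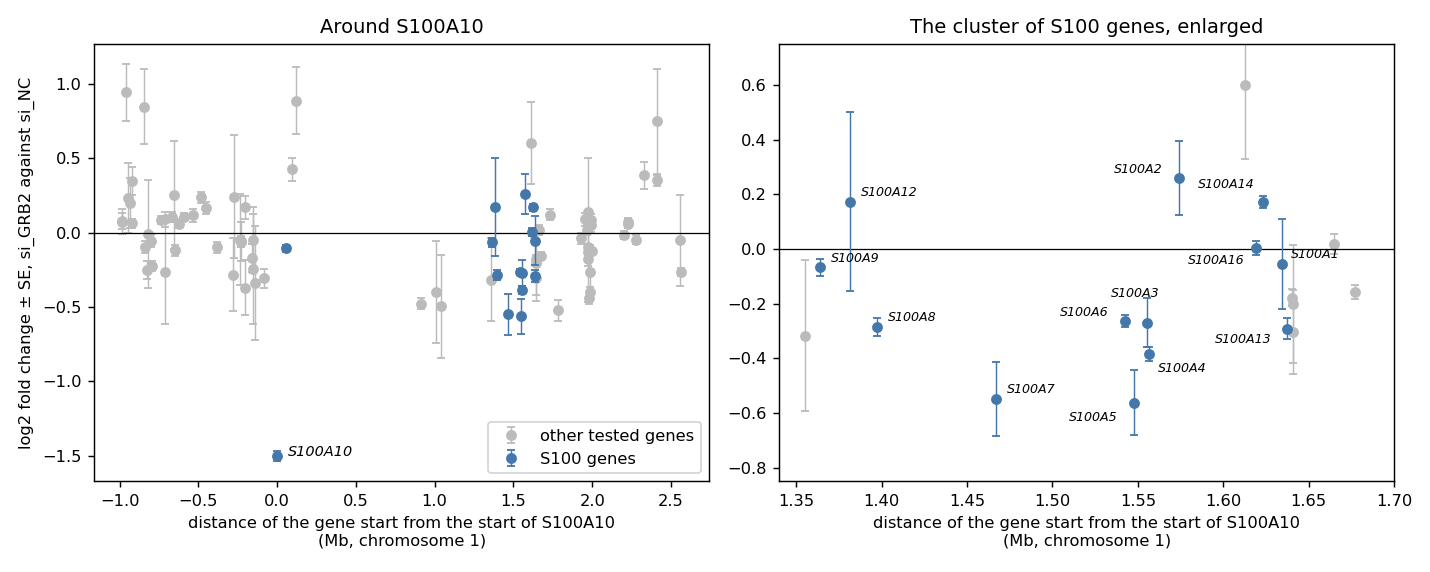
Log2 fold change with standard error (vertical axis) of tested genes against the distance of their start from that of S100A10 in Mb (horizontal axis), with S100 genes in blue and other genes in grey, and the S100 cluster enlarged on the right. S100A10 lies at −1.50, and the other genes within 1 Mb of it lie between −0.48 and 0.94.

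Across the 6 libraries, the log2 CPM of S100A10 was most like that of PPIA, CENPW, GRB2, SEC23IP and GJA5 by Pearson's r, among 10623 genes with at least 5 CPM on average. The r values ran from 0.9992 for GJA5 to 0.9997 for PPIA over n = 6 libraries, which fall into the si_NC and si_GRB2 groups, so r mainly reflects a difference between groups with little spread within them. The log2 fold changes of these genes were −0.59 for PPIA, −2.22 for CENPW, −2.15 for GRB2, −0.75 for SEC23IP and −0.73 for GJA5. One siRNA against GRB2 is known by sequence from the methods. Bases 2 to 8 of its guide strand pair with the letters ACAGATC. None (0) of the 10 members held these letters in the 3′ UTR of its MANE Select transcript, where 8.13% of 12293 tested genes held them. The 3′ UTRs of the members are short, from 71 bases in S100A8 to 648 in S100A16 and 248 in S100A10.

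Reads that match a member and a copy of it equally were not counted, since only uniquely mapped reads were kept, and their number is unknown. The pseudogenes ANXA2P2 and ANXA2P1 had reads equal to 0.219% and 0.007% of those of ANXA2. ANXA2P3 and 8 pseudogenes of S100A11 had no entry among the deposited counts. S100A3 lies within S100A4 on the same strand with reads equal to 1.21% of those of S100A4, so its low values are uncertain. S100A13 overlaps S100A1 on the opposite strand, which had 2.78% of its reads, and ENSG00000271853 on the same strand, which had 3.54%. Whether counting used strand is not given in the sources used here.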

How the data were processed

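Total RNA of SK-BR-3 cells was captured on mRNA beads and sequenced as strand-specific paired-end libraries. The authors trimmed reads with FASTX-Toolkit, aligned them to GRCh38 with HISAT2 and deposited the count of uniquely mapped reads per gene, without normalization. The authors also deposited FPKM per gene. The counting tool and annotation release are not given in the sources used here. Groups were taken from the sample descriptions, with 3 libraries in each. TMM factors were computed with edgeR 4.0.16 under R 4.3.3. After filterByExpr 15801 genes remained, and a quasi-likelihood test over all of them compared si_GRB2 with si_NC without a covariate. Standard errors are the log2 fold change divided by the square root of F. The test was checked on simulated counts. The alternatives used DESeq2 1.42.0, limma 3.58.1 on FPKM, glmTreat, other filters and scalings, a replicate block and each library left out. Pearson correlations within groups were 0.992 to 0.995. Between 24810378 and 28532480 reads per library were counted, and genes with few reads have larger standard errors.

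Gene positions, exon lengths, MANE Select transcripts and 3′ UTRs came from GENCODE 44 (GRCh38), which held 99.7% of the gene identifiers, and start regions from RefSeq (GRCh38.p14), which held all 10 members. Tables and figures were made with Python 3.11.15, pandas 2.3.3, numpy 2.4.6 and matplotlib 3.10.9. The members, gene lists and tests were chosen with earlier results of these data known. Named genes are the members, GRB2, in each list the DEGs and up to 3 genes with the largest change per direction at an adjusted p under 0.05, the 5 genes most like S100A10, DEGs among neighbours, and overlapping genes. AHNAK, S100P, S100A11 and THEM4 as the nearest neighbours, the genes just past S100A1, and COL1A1 among markers, were named after their values were seen. The genes just past S100A1 are not among the refits reported below. A gene that the rule would name is not reported here. Protein sequences and fRIP-seq were not analysed here.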

Additional observations from a re-analysis of the deposited data

How the results depend on the processing

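S100A10 kept its direction in all the settings tried, which reuse the libraries in which it was chosen by its p. Its log2 fold change ran from −1.53 to −1.45, the smallest value coming from limma on log2(FPKM + 1). Leaving out each library in turn gave −1.37 to −1.34 for the log2 fold of the S100A10 to ANXA2 ratio and −0.24 to −0.19 for that of S100A8 to S100A9. Per kilobase of the MANE Select transcript, a scale added after the data were seen, the S100A10 to ANXA2 ratio was 1.71 in si_NC and 0.667 in si_GRB2 instead of 8.42 and 3.29. Over the refits of the other named genes, 400 kept their direction and side of the limit, 87 lost their call, 2 gained it and 4 changed sign. The 4 all belonged to S100A16, at −0.00 with at least 10 counts in every library, −0.01 with either group's replicate 1 left out, and −0.02 when si_NC replicate 2 was dropped, within a range of −0.02 to 0.02 over the fits that left out a library.

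GlmTreat, which tests against a fold of 1.5 and is stricter by construction, called 0 of the 9 members other than S100A10 lower and 0 higher, and 0 in the other lists save 1 annexin lower, with 0 DEGs among annexins and in the plasminogen system. Limma on log2(FPKM + 0.1) called 0 of the 9 members other than S100A10 in either direction, 1 annexin and 1 gene of the plasminogen system lower, and 0 genes elsewhere in the lists, with 0 DEGs among annexins and in the plasminogen system. Limma on log2(FPKM + 1) called 3 of these 9 members lower, 1 annexin higher, 1 receptor or partner of other S100 members in each direction, 0 further S100 genes and 0 S100A10 partners lower, and 0 DEGs among annexins and in the plasminogen system. With a mean FPKM of at least 1, it called 1 further S100 gene higher, 0 S100A10 partners and 1 receptor or partner lower, and 0 DEGs in the plasminogen system. Why fewer genes were called from FPKM was not tested. Without a filter on low counts, 2 partners of S100A10 were higher.

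With each library left out, 6 to 7 of the 9 members were lower and 1 was higher, 0 to 2 further S100 genes were DEGs, and 0 to 1 partner of S100A10 was lower. The deviations of same-numbered libraries correlated at 0.232, −0.095 and 0.08, so the numbers were not taken to pair the libraries. A replicate block changed no call of a named gene, with a log2 fold change of −1.50 for S100A10 and −0.15 for ANXA2, 6 of the 9 other members lower and 1 higher, and raised the count of DEGs from 398 to 459. Genes with few reads, such as S100A3, S100A5 and S100A7, are limited by depth.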
